A study of Mus musculus with 34 samples.

Results

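Sites occupied by both p65 and PDX1 in unstimulated mouse β cells were found by comparing the p65 and PDX1 peak lists of wild-type control cells. A p65 peak that overlapped a PDX1 peak by at least 1 bp was counted as a co-occupied site. There were 1749 such sites, which made up 55.4% of the 3157 p65 peaks and 4.37% of the 40028 PDX1 peaks. The remaining 1408 p65 peaks had no PDX1 peak over them, and the remaining 38279 PDX1 peaks had no p65 peak over them. All 10 peak lists of the study together held 174035 peaks.

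The cells were Beta-TC6, a mouse insulinoma line used as a model of the pancreatic β cell, so all values come from 1 cell line. Chromatin immunoprecipitation followed by sequencing (ChIP-seq) of p65, PDX1 or the corepressor scaffold SIN3A was done on 34 samples, inputs included. The basal groups described here were wild-type and had received no IL-1β, with 3 immunoprecipitated samples each for p65 and PDX1. Like all other cells of the study they had been synchronised by a 1 h pulse of 10 µM forskolin, an activator of adenylate cyclase. The other groups were wild-type cells with the inflammatory cytokine IL-1β, Bmal1-/- cells without or with IL-1β, and wild-type cells with Pdx1 siRNA or control siRNA. Bmal1 encodes an activator of the core circadian clock. Each group is represented by 1 peak list with no value per replicate, so no value below has a replicate error and no test between groups was possible. Intervals are Wilson 95% intervals and cover counting error only.

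p65, encoded by Rela, is the transactivating subunit of NF-κB. In resting cells it is held mostly in the cytoplasm by IκB proteins, and after IL-1 receptor signalling these are degraded and p65 enters the nucleus to bind κB sequences at inflammatory genes and at the genes of its own inhibitors. PDX1 is a homeodomain factor that recognises sequences with a TAAT core and maintains insulin expression and β-cell identity. In β cells both factors are known to bind distal enhancers as well as promoters.

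Promoter sequences under 8 of the p65 peaks are shown as examples of the peaks with and without PDX1. All 8 hold a marked motif, so they are not typical of their classes. The stretches are the parts of RefSeq promoter windows, in build GRCm38.p6 (mm10), that lie inside a basal p65 peak and before the annotated start of transcription. They run 5′ to 3′ on the strand of the gene. The first is from the co-occupied promoter peak with the most p65 tags, at Rfx6, which encodes a transcription factor of islet development, and its capitals mark TAATGA as read on the other strand. The p65 and PDX1 peaks there had centres 2 bp apart. No TAATGA was in the promoter windows of Elk1 and Gm4791, where co-occupied peaks also lay.

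Rfx6, chr10:51685375-51685517, plus strand: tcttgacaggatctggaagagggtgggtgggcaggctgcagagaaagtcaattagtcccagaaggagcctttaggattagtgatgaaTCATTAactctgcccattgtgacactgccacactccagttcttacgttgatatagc

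The next 7 are from p65 peaks without PDX1 at genes of the NF-κB feedback loop and of antigen presentation, and their capitals mark matches to the κB consensus on either strand. Among all promoter peaks of this class, 44 touched a window with the consensus and 60 touched only windows without it. Nfkbia and Nfkbie encode IκB proteins, Nfkb2 an NF-κB subunit, and Tnfaip3 and Traf3 encode brakes on the pathway. Irf1 encodes an interferon-response factor and B2m the light chain of MHC class I.

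Nfkbia, chr12:55492648-55492731, minus strand: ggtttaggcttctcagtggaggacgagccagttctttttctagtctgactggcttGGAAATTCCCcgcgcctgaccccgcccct

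Nfkb2, chr19:46304621-46304736, plus strand: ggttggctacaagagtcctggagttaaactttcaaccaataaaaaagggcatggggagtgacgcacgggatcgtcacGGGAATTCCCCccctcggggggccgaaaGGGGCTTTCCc

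Tnfaip3, chr10:19015411-19015545, minus strand: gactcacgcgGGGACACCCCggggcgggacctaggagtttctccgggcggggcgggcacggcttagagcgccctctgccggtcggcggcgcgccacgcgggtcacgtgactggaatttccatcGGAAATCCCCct

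Nfkbie, chr17:45555456-45555662, plus strand: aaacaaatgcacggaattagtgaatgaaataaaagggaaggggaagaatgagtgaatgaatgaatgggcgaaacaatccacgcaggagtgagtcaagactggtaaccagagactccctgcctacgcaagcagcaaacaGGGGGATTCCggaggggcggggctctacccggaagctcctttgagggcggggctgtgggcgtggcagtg

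Traf3, chr12:111166282-111166369, plus strand: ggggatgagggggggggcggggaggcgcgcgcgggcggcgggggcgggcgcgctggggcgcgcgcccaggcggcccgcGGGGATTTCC

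Irf1, chr11:53769859-53770013, plus strand: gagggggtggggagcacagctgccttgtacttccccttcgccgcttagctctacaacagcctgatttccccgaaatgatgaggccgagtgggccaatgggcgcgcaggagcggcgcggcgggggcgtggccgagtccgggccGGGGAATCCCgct

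B2m, chr2:122147457-122147663, plus strand: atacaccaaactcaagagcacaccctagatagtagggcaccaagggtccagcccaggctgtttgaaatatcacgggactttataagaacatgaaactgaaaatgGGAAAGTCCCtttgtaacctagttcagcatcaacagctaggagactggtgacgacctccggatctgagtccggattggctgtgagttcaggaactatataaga

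The p65 peaks at these starts carried more tags with IL-1β than in control cells. Tag counts are the authors' tags per peak, normalised to 10 M tags in each list. The Tnfaip3 peak had 810.9 tags with IL-1β and 34.2 in control cells. The Nfkb2 peak had 509.2 tags with IL-1β and 32.5 in control cells, and the promoter peak of Nfkbia had 424.2 with IL-1β and 21.8 in control cells. Rfx6 differed from these. Its co-occupied peak had 13.2 p65 tags and 82.8 PDX1 tags in control cells and overlapped no p65 peak with IL-1β.

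The overlap of p65 with PDX1 is set here beside the part of the genome covered by peaks, for scale only. That part would be a reference only for peaks placed evenly over the genome. Both lists came from the same cell line and the same input, so no test is drawn from it. PDX1 peaks covered 0.414% of the 2000 Mb that the file headers give as genome size, while 55.4% (53.7 to 57.1) of p65 peaks overlapped one. Seen from PDX1, 4.37% (4.17 to 4.57) of its peaks overlapped a p65 peak, and p65 peaks covered 0.0327% of that size. Each co-occupied site paired 1 p65 peak with 1 PDX1 peak. The peak centres lay a median of 48.0 bp apart (quartiles 23 and 87, highest 206 bp), and 902 of the 1749 sites (51.6%) had centres within 50 bp. Just inside the overlap rule, 118 sites shared 50 bp or less, with medians of 5.95 p65 tags and 19 PDX1 tags. Just outside it, 159 p65 peaks had a PDX1 peak within 500 bp but no shared base, with a median of 6.32 p65 tags. Of the p65 peaks without PDX1, 25.4% had a PDX1 peak within 5 kb.

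Co-occupied sites were among the strongest PDX1 peaks. Their median PDX1 tag count was 28.6 (quartiles 17.3 and 46.2), against 7.81 (4.99 and 13.6) at PDX1 peaks without p65. The fold over input showed the same order, with medians of 24.8 at co-occupied sites and 9.11 at PDX1 peaks without p65, at a median of 3.0 input tags in both classes. The share of PDX1 peaks that were co-occupied was 0.29% in the lowest of 4 equal bins of tag count, 0.899% in the next, 2.12% in the next and 14.2% in the highest. Among the 2001 PDX1 peaks with the highest tag counts, the top 5%, it was 33.7% (31.7 to 35.8).

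The p65 signal separated the classes less. Co-occupied sites had a median of 6.88 p65 tags (quartiles 5.21 and 9.48, highest 72.9), against 6.14 (4.65 and 9.67, highest 131.3 at Aatf) at p65 peaks without PDX1, so the ranges overlapped over most of their length. The fold over input was lower at co-occupied sites, with a median of 6.34, against 8.31 at p65 peaks without PDX1. Median input tags were 3.0 at co-occupied sites and 2.0 at p65 peaks without PDX1, and the part of the input in this order was not tested. From the lowest to the highest of 4 bins of p65 tag count, the co-occupied share was 43.2%, 58.6%, 64.9% and 55.0%, and it was 37.3% (30.2 to 45.1) in the top 5%. By fold over input the order was different: from the lowest to the highest bin the share was 65.3%, 60.5%, 52.5% and 43.3%.

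**Figure D1:**
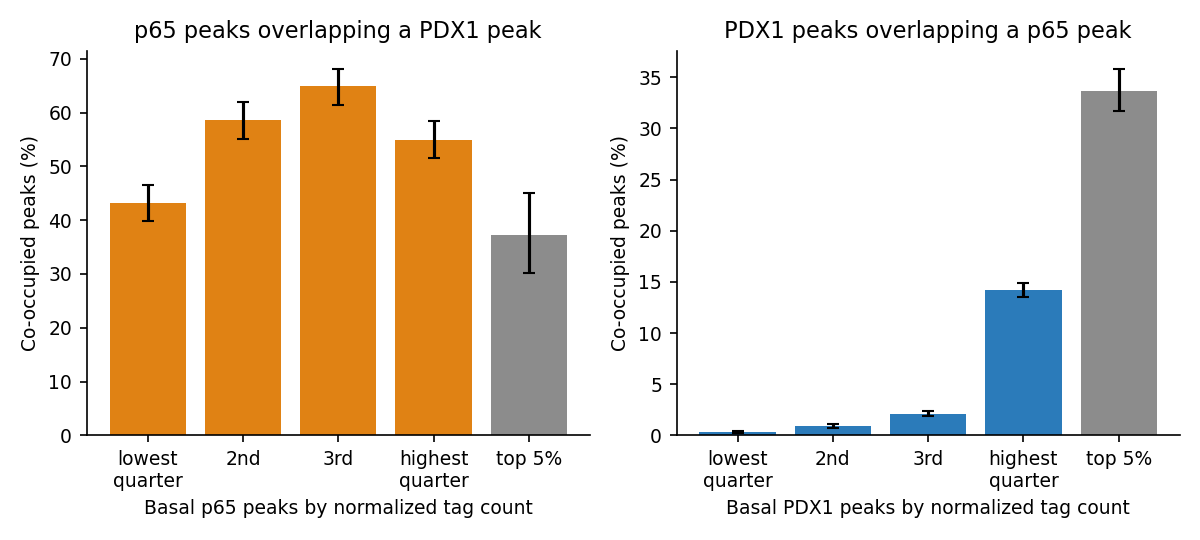
Share of basal p65 peaks that overlap a PDX1 peak (left) and of basal PDX1 peaks that overlap a p65 peak (right), in percent, in 4 equal bins of normalized tag count from low to high and, in grey, in the top 5%. Bars are shares and whiskers Wilson 95% intervals. The PDX1 panel climbs to 14.2% in the highest bin and 33.7% in the top 5%, while the p65 panel peaks at 64.9% in the bin before the highest.

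Within the co-occupied class most sites had more PDX1 than p65 tags. The counts come from different antibodies, with 5.0% of PDX1 tags and 0.268% of p65 tags inside peaks. Their ratio is therefore not a ratio of occupancy. The ratio of PDX1 to p65 tags had a median of 4.41 (quartiles 2.9 and 5.63), and 68 sites (3.89%) had more p65 than PDX1 tags. Over the 1749 sites the log2 tag counts of the 2 factors had a Pearson correlation of 0.61 and a Spearman correlation of 0.67. All sites come from the same 2 peak lists, called against the same input, so the correlation is given as a description. The plot of both tag counts shows a dense band with several times more PDX1 than p65 tags, and a looser set of sites towards equal tag counts.

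The looser set held many of the sites with more p65 tags in the IL-1β list. At 229 co-occupied sites (13.1%) the p65 tag count with IL-1β was at least 4-fold the basal one, with medians of 89.8 tags with IL-1β and 8.55 in control cells. Their basal PDX1 to p65 ratio had a median of 2.33 and the correlation of their log2 tag counts was 0.38. At 818 sites a p65 peak was present with IL-1β but at less than 4-fold, with medians of 13.4 tags with IL-1β and 7.71 in control cells. These sites had a median ratio of 5.01 and a correlation of 0.68. The 702 sites (40.1%) with no p65 peak in the IL-1β list had a median ratio of 4.11 and a correlation of 0.71.

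**Figure D2:**
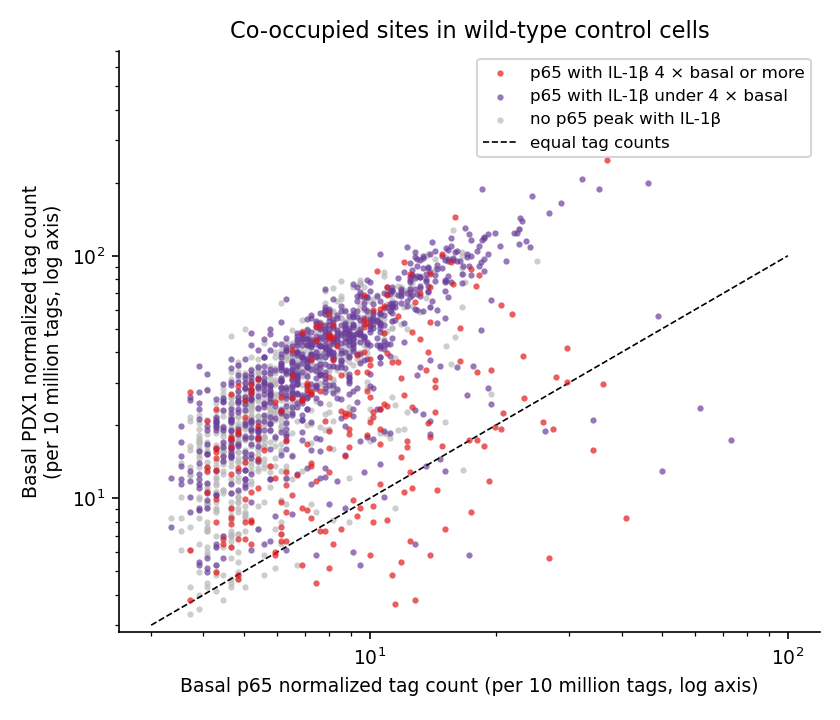
Basal p65 tag count (x) and basal PDX1 tag count (y) of the 1749 co-occupied sites, each a point, on log axes, coloured by the p65 tag count with IL-1β relative to control. The dashed line marks equal tag counts, which is not equal occupancy, since the antibodies differ. Sites at 4-fold or more with IL-1β (red, 229) spread towards the line, with a median PDX1 to p65 ratio of 2.33, while the others lie mostly in the band above it.

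Co-occupied sites lay far from gene ends. Location was taken relative to 21887 protein-coding gene bodies, and since the gene table gives no strand, a gene end can be a start or a 3′ end. Of the 1747 co-occupied sites on chromosomes 1 to 19 and X, 2.40% (1.78 to 3.23) lay within 1 kb of a gene end, against 21.3% (19.2 to 23.5) of the p65 peaks without PDX1 and 3.89% (3.70 to 4.09) of the PDX1 peaks without p65. The median distance to the nearest gene end was 50854 bp at co-occupied sites, 12369 bp at p65 peaks without PDX1 and 50284 bp at PDX1 peaks without p65. The co-occupied median lay closer to that of PDX1 without p65 than to that of p65 without PDX1. Inside gene bodies lay 46.8% of co-occupied sites, 59.2% of p65 peaks without PDX1 and 47.6% of PDX1 peaks without p65. Farther than 50 kb from any gene lay 30.9% of co-occupied sites, 14.4% of p65 peaks without PDX1 and 30.9% of PDX1 peaks without p65.

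The difference in location was also present within the bins of highest signal, although the classes still differed in signal there. Median p65 tags in the highest p65 bin were 12.5 at co-occupied sites and 14.3 at p65 peaks without PDX1, and median PDX1 tags in the highest PDX1 bin were 34.4 at co-occupied sites and 21.8 at PDX1 peaks without p65. Among p65 peaks in the highest of the 4 bins of p65 tag count, 2.08% (1.10 to 3.90) of 433 co-occupied sites and 29.3% (24.8 to 34.2) of 355 p65 peaks without PDX1 lay within 1 kb of a gene end. Among PDX1 peaks in the highest bin of PDX1 tag count the values were 1.20% (0.750 to 1.91) of 1417 co-occupied sites and 3.53% (3.16 to 3.94) of 8580 PDX1 peaks without p65. Promoter windows, from 250 bases before to 50 after an annotated start, were touched by 7 co-occupied sites (0.401%), 104 p65 peaks without PDX1 (7.40%) and 407 PDX1 peaks without p65 (1.06%). Of 17492 genes with a window, 7 (0.04%) had one touched by a co-occupied site. For p65 peaks without PDX1 there were 111 such genes (0.635%), and for PDX1 peaks without p65 there were 422 (2.41%). The genes with a co-occupied promoter peak were Rfx6, Dhrs13, Elk1, Gm4791, Cpn1, Zfp59 and Tsku, named here after their values were seen.

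**Figure D3:**
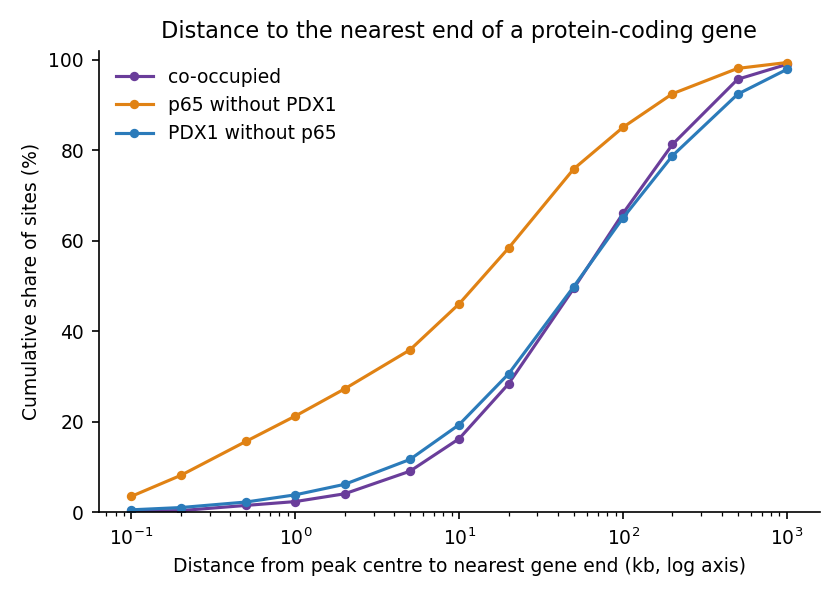
Cumulative share of sites (y, percent) by distance from the peak centre to the nearest end of a protein-coding gene (x, kb, log axis), for co-occupied sites, p65 peaks without PDX1 and PDX1 peaks without p65. At 10 kb the shares are 16.3%, 46.1% and 19.4% in that order, so the co-occupied curve runs with that of PDX1 without p65.

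Assigning each peak to the nearest protein-coding gene body within 50 kb gave 1063 genes (4.86% of all) with a co-occupied site, 1026 genes (4.69%) with a p65 peak without PDX1 and 8953 genes (40.9%) with a PDX1 peak without p65. These shares are the background for the gene lists below. Of the 1063 genes with a co-occupied site, 915 (86.1%) also had a PDX1 peak without p65 and 136 also had a p65 peak without PDX1. A gene with a peak nearby is not shown to be regulated by it.

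Insulin and secretion genes were often near co-occupied sites. Of 37 genes for insulin, granule cargo and secretion, 10 (27%) had a co-occupied site, 1 had a p65 peak without PDX1 and 26 (70.3%) had a PDX1 peak without p65. The strongest was inside Slc30a8, which encodes the zinc transporter of insulin granules, with 19.2 p65 tags and 123.3 PDX1 tags. Abcc8, which encodes the sulfonylurea receptor, had a site with 18.2 p65 and 83.4 PDX1 tags. Cpe, which encodes the carboxypeptidase that trims proinsulin, had one with 14.1 p65 and 114.0 PDX1 tags. These 3 sites lay inside the gene bodies, more than 10 kb from their ends.

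At Ins1, a mouse insulin gene, the co-occupied site lay 11736 bp outside the gene and had 10.0 p65 and 49.9 PDX1 tags. The Ins1 promoter itself had a PDX1 peak of 44.0 tags without p65. Ero1b, an oxidase of disulfide formation in the endoplasmic reticulum, had a site with 13.6 p65 and 33.9 PDX1 tags. The others were at Scg2 and Scg5, granule proteins, Cacna1c, a calcium channel subunit, Rims2, an exocytosis scaffold, and Ptprn2, a granule membrane protein, with 4.84 to 7.62 p65 tags. The gene with a p65 peak without PDX1 was Pcsk2, a proinsulin convertase, at 4.84 tags. When at least 8-fold over input was required of both lists, 1 of the 10 genes was left with a co-occupied site.

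With IL-1β the p65 peaks at these genes differed. The Ero1b site had 176.1 p65 tags with IL-1β and 13.6 in control cells, and the Abcc8 site had 84.4 with IL-1β and 18.2 in control cells. The Slc30a8 site had 23.9 p65 tags with IL-1β and 19.2 in control cells, and the Ins1 site had 17.4 with IL-1β and 10.0 in control cells. The site at Rims2 had no p65 peak in the IL-1β list.

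β-cell transcription factor genes were near PDX1 peaks, mostly without p65. Of 25 such genes, 3 (12.0%) had a co-occupied site, 1 had a p65 peak without PDX1 and 24 (96.0%) had a PDX1 peak without p65. The co-occupied sites were at Rfx6, shown above, at Myt1, a zinc-finger factor, with 11.5 p65 and 24.3 PDX1 tags, and at Mnx1, a homeodomain factor, with 4.65 p65 and 8.97 PDX1 tags. None of these 3 sites had a p65 peak in the IL-1β list. Required to be at least 8-fold over input in both lists, none of the 3 genes kept a co-occupied site. The highest PDX1 peaks without p65 on this list were at Rfx3 with 107.7 tags, Nkx6-1 with 90.1, Mlxipl with 82.4 and Pdx1 itself with 73.8.

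Hormones and factors of other islet cells had 4 of 14 genes (28.6%) with a co-occupied site, 1 with a p65 peak without PDX1 and 9 (64.3%) with a PDX1 peak without p65. The site near Pyy, a peptide hormone, had 16.2 p65 and 95.5 PDX1 tags. The sites at Etv1 and Hhex, which encode transcription factors, had 10.4 and 9.30 p65 tags. Sst, the somatostatin gene, had a PDX1 peak without p65 of 106.5 tags, 46651 bp outside the gene.

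NF-κB target genes showed the opposite split. Of 38 NF-κB targets and feedback regulators, 3 (7.89%) had a co-occupied site, 15 (39.5%) had a p65 peak without PDX1 and 16 (42.1%) had a PDX1 peak without p65. The 15 genes were Nfkbia, Nfkbib, Nfkbie, Nfkbid, Nfkbiz, Bcl3, Nfkb1, Nfkb2, Relb, Tnfaip3, Tnip1, Traf3, Cyld, Nos2 and Irf1. The highest peak of each had 6.70 to 45.6 basal p65 tags, the most at Nfkbia and the fewest at Nfkb1. Each of these 15 peaks was found in the IL-1β list, with 101.6 tags at Cyld as the lowest and 810.9 at Tnfaip3 as the highest. Nfkbia had its highest basal peak, of 45.6 tags, inside the gene, with 509.8 tags with IL-1β. Relb, an NF-κB subunit gene, had 403.7 tags with IL-1β and 30.7 in control cells. The Nfkbib peak also touches the promoter of its neighbour Sirt2, so it cannot be given to either gene.

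The 3 NF-κB targets with a co-occupied site were Nfkbia, Nfkb1 and Tnip1, and all of them also had a p65 peak without PDX1. Tnip1 encodes a partner of the deubiquitinase A20. Its co-occupied site, inside the gene, had 12.6 p65 and 11.0 PDX1 tags and reached 86.9 p65 tags with IL-1β. The stronger of 2 co-occupied sites near Nfkb1, with 10.8 p65 and 48.0 PDX1 tags, and the site near Nfkbia, with 4.65 p65 and 10.5 PDX1 tags, lay outside the genes and overlapped no p65 peak in the IL-1β list.

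Each of 3 other lists of immune genes held 0 or 1 gene with a co-occupied site. In lists of 20 to 28 genes, such counts cannot be told apart from the 4.86% of all genes. Of 28 cytokine and chemokine genes, 1 (3.57%) had a co-occupied site, 5 (17.9%) had a p65 peak without PDX1 and 13 (46.4%) had a PDX1 peak without p65. The gene was Csf1, which encodes macrophage colony-stimulating factor, and its site had 6.51 p65 and 40.9 PDX1 tags, with 135.2 p65 tags with IL-1β. Csf1 also had a p65 peak without PDX1, of 10.2 tags, as did Il15, Csf2, Tgfb1 and Ccl5. Of 25 genes of IL-1 receptor and IKK signalling, 0 had a co-occupied site, 1 had a p65 peak without PDX1 (Map3k8, 6.32 tags) and 13 (52.0%) had a PDX1 peak without p65. Of 20 genes of antigen presentation and interferon response, 1 (5.0%) had a co-occupied site, 5 (25%) had a p65 peak without PDX1 and 3 (15.0%) had a PDX1 peak without p65. Genes with p65 without PDX1 included B2m, Tapbp, H2-K1 and H2-D1. H2-K1 and H2-D1 belong to a family of similar genes, so their reads are uncertain.

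**Figure D4:**
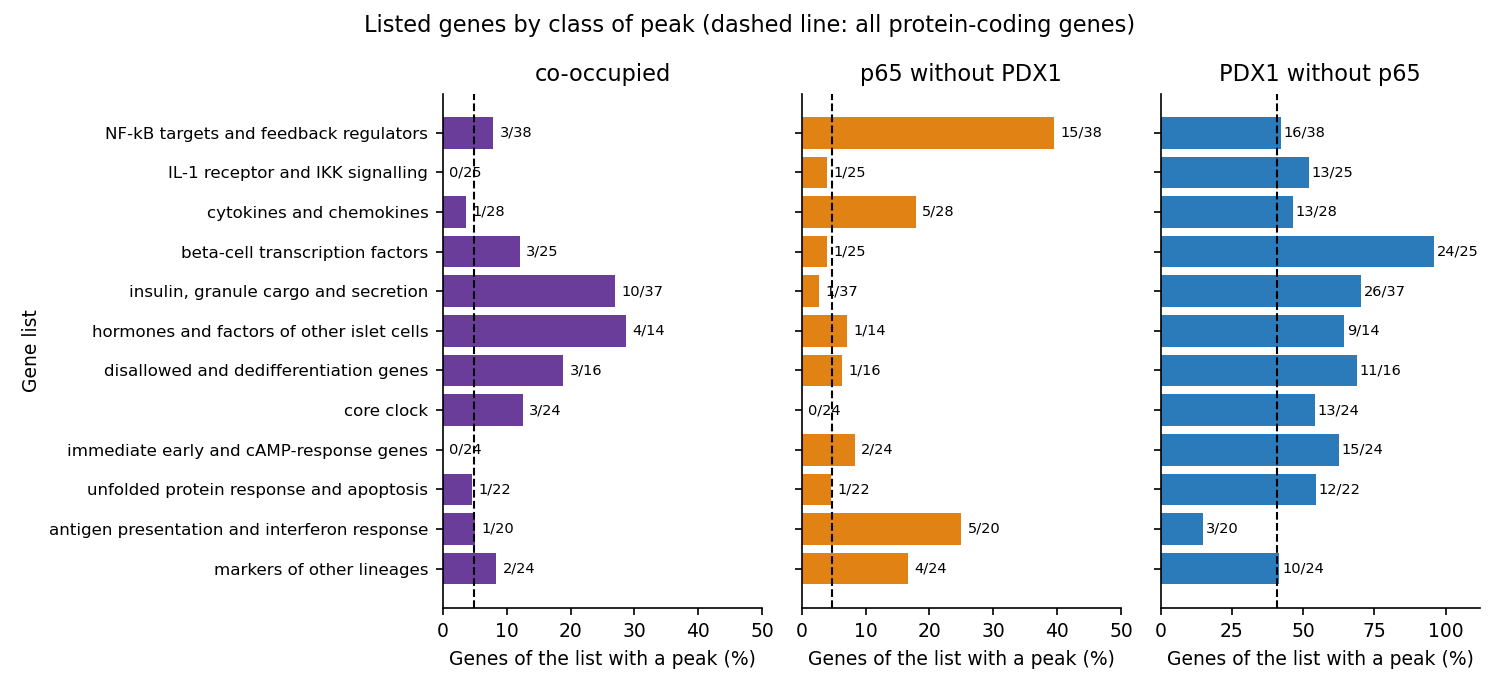
Share of the genes of 12 lists (y) with at least 1 peak of each class (x, percent), for co-occupied sites, p65 without PDX1 and PDX1 without p65; labels give genes with a peak over genes matched. Dashed lines mark all protein-coding genes at 4.86%, 4.69% and 40.9%. NF-κB targets stand at 15 of 38 for p65 without PDX1, while insulin and secretion genes stand at 10 of 37 for co-occupied sites.

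The co-occupied sites with the most p65 tags included several with more p65 than PDX1 tags. Slc3a1, a subunit of an amino acid transporter, had the highest, with 72.9 p65 and 17.4 PDX1 tags. Npas3, which encodes a bHLH-PAS transcription factor, had 61.7 p65 and 23.6 PDX1 tags, and Jak1, a cytokine receptor kinase, had 50 p65 and 13.0 PDX1 tags. Next came Zfp407 with 48.9 p65 tags, Spata2 with 41.1, Rhbdl2 with 36.1, Ube3c with 35.3, Kdm2b and Sh3rf1 with 34.2 each, and Zfp395 with 32.2. All 10 lay inside gene bodies, and the nearest to a gene end was the Kdm2b site at 3042 bp.

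With IL-1β, 3 of these 10 sites had several times more p65 tags than in control cells, 6 had fewer and Zfp395 had 38.5 with IL-1β and 32.2 in control cells. Spata2, which encodes an adaptor of the deubiquitinase CYLD, had 333.8 p65 tags with IL-1β and 41.1 in control cells. Rhbdl2, an intramembrane protease gene, had 348.2 with IL-1β and 36.1 in control cells, and Sh3rf1, a scaffold of JNK signalling, had 286.7 with IL-1β and 34.2 in control cells. The other 7, Zfp395 included, had 29.9 to 48.6 p65 tags with IL-1β. At Slc3a1 the values were 47.1 with IL-1β and 72.9 in control cells. The tag counts of separate lists have no replicate error, so these pairs are given side by side.

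The co-occupied sites with the most PDX1 tags and a gene within 50 kb were at Zfp395 with 208.0 PDX1 tags, Ube3c with 188.6 and Gm3415 with 187.9. Pip5k1b, Gabbr2, Prkg1, Prune2, Inpp4b, Tln1 and Fkbp9 followed with 123.8 to 149.9 PDX1 tags and 16.0 to 26.8 p65 tags. All 10 had a PDX1 peak in the IL-1β list and in the Bmal1-/- control list. Over all co-occupied sites in the highest PDX1 bin these shares were 98.9% and 76.4%. At Ube3c the PDX1 tags were 174.2 in Bmal1-/- control cells and 188.6 in wild-type control cells, and at Zfp395 they were 86.0 in Bmal1-/- control cells and 208.0 in wild-type control cells. The genes with the most co-occupied sites were Pde4d, a cAMP phosphodiesterase, with 7, Auts2 with 5, Ntm with 4, and Inpp4b and Cacna2d1 with 3 each. Other genes were tied with the last of these at 3 sites. Gene length differed widely, at 1302 kb for Pde4d and 440 kb for Cacna2d1, and at 85.5 kb for Lrpprc, a tied gene named after its values were seen.

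The p65 peaks without PDX1 had other leading genes. The highest was inside Aatf, which encodes a transcription-associated factor, with 131.3 tags. It was followed by Wdtc1 with 84.4, Fabp4, the adipocyte fatty acid-binding protein, with 3 peaks of 74.0, 68.6 and 53.0, Scd1, a fatty acid desaturase, with 72.7, Otulinl with 61.2, Ahdc1 with 49.8, Cbfa2t3 with 48.7 and Nfkbia with 45.6. Apart from Nfkbia, each of these peaks had fewer p65 tags with IL-1β than in control cells, for example 74.0 with IL-1β and 131.3 in control cells at Aatf.

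Co-occupied sites had the highest share of the 3 classes in 5 of the 8 other lists, and p65 peaks without PDX1 had it in the p65 list of Bmal1-/- control cells and in both SIN3A lists. The classes were set by the presence or absence of a basal p65 or PDX1 peak. A low share in another list of the factor that a class lacks therefore follows in part from that rule. Those contrasts are given as a description only. With IL-1β, 59.9% (57.5 to 62.1) of co-occupied sites had a p65 peak, against 38.7% (36.2 to 41.3) of p65 peaks without PDX1, with 50.4% over all basal p65 peaks. The share was 17.7% of PDX1 peaks without p65, with 19.6% over all basal PDX1 peaks. A PDX1 peak with IL-1β was present at 93.5% (92.3 to 94.6) of co-occupied sites, against 9.73% of p65 peaks without PDX1 and 58.5% of PDX1 peaks without p65 (56.2% over all p65 and 60.1% over all PDX1 peaks). Both factors were present with IL-1β at 57.5% of co-occupied sites, 7.53% of p65 peaks without PDX1 and 16.0% of PDX1 peaks without p65.

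These shares also moved with peak strength. Among PDX1 peaks in the highest of the 4 bins of PDX1 tag count, a PDX1 peak with IL-1β was present at 98.9% of co-occupied sites and 93.3% of PDX1 peaks without p65. A p65 peak with IL-1β was present at 63.5% (60.9 to 65.9) of co-occupied sites in that bin and 41.0% (40.0 to 42.1) of PDX1 peaks without p65. The part of the remaining difference in basal PDX1 tags within the bin was not tested. In the highest bin of p65 tag count, 80.6% (76.7 to 84.1) of co-occupied sites had a p65 peak with IL-1β. Of p65 peaks without PDX1 in that bin, 65.6% (60.5 to 70.4) had one. Median basal p65 tags in the p65 bin were 12.5 and 14.3 in that order, and their part was not tested.

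In Bmal1-/- control cells the p65 list held 173 peaks, and 39 co-occupied sites (2.23%), 115 p65 peaks without PDX1 (8.17%) and 12 PDX1 peaks without p65 (0.0313%) overlapped one, with 4.88% over all basal p65 and 0.127% over all basal PDX1 peaks. The co-occupied sites found there had a median of 18.0 basal p65 tags and those not found 6.88. In the highest bin of basal p65 tag count, 7.6% of co-occupied sites and 25.4% of p65 peaks without PDX1 overlapped a peak of this list. PDX1 in these cells was present at 65.2% (63.0 to 67.4) of co-occupied sites, 3.12% of p65 peaks without PDX1 and 17.0% of PDX1 peaks without p65 (37.5% over all p65 and 19.1% over all PDX1 peaks). In the highest bin of PDX1 tag count it was present at 76.4% of co-occupied sites and 50.9% of PDX1 peaks without p65. Peaks in the control Bmal1-/- lists were 479 bp wide for p65 and 472 bp for PDX1, against 206 bp and 207 bp in the wild-type control lists for p65 and PDX1, and the part of peak width in these shares was not tested.

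In Bmal1-/- cells with IL-1β, p65 was present at 43.6% of co-occupied sites, 26.3% of p65 peaks without PDX1 and 9.86% of PDX1 peaks without p65 (35.9% over all p65 and 11.3% over all PDX1 peaks). PDX1 was present there at 65.5% of co-occupied sites, 5.04% of p65 peaks without PDX1 and 15.6% of PDX1 peaks without p65 (38.5% over all p65 and 17.7% over all PDX1 peaks). In both genotypes, samples titled PDX1 and given IL-1β carry a p65 antibody label; here they are taken as PDX1, after their titles.

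SIN3A was found at few sites of any class. With Pdx1 siRNA, SIN3A peaks overlapped 6.69% (5.61 to 7.96) of co-occupied sites, 8.88% (7.5 to 10.5) of p65 peaks without PDX1 and 2.64% of PDX1 peaks without p65 (7.67% over all p65 and 2.85% over all PDX1 peaks). With control siRNA the shares were 5.32% (4.36 to 6.47) of co-occupied sites, 8.59% of p65 peaks without PDX1 and 2.10% of PDX1 peaks without p65 (6.78% over all p65 and 2.24% over all PDX1 peaks). In the highest PDX1 bin, SIN3A with control siRNA was at 5.43% of co-occupied sites and 5.23% of PDX1 peaks without p65. With Pdx1 siRNA these were 7.76% and 7.11%. In the highest p65 bin, SIN3A with control siRNA was at 10.8% of co-occupied sites and 15.5% of p65 peaks without PDX1. With Pdx1 siRNA these were 12.7% and 15.5%. The same sites were scored in both SIN3A lists, which held 14653 peaks with Pdx1 siRNA and 13109 with control siRNA. Shares are therefore compared between classes within each list, and no difference between the 2 lists was tested. Abcc8 and Hk1, a hexokinase gene, were among the co-occupied genes with SIN3A under control siRNA.

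**Figure D5:**
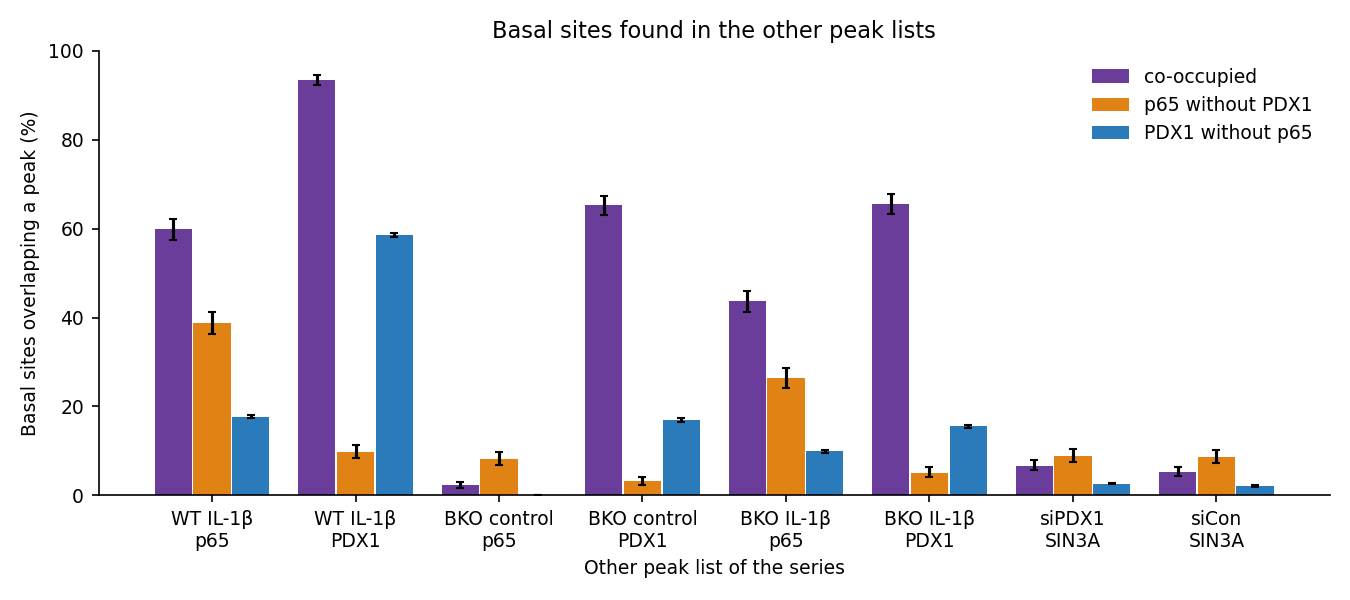
Share of basal sites of each class (y, percent) that overlap a peak of the 8 other lists (x; BKO, Bmal1-/-; siPDX1 and siCon, Pdx1 and control siRNA). Bars are shares and whiskers Wilson 95% intervals. Co-occupied sites are highest in both wild-type lists with IL-1β (59.9% and 93.5%) and lie below p65 without PDX1 in the p65 list of Bmal1-/- control cells (2.23% against 8.17%). Low shares in lists of the factor that a class lacks follow in part from the class rule.

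Whole promoter windows were searched for motifs, so a match need not lie inside the peak. The κB consensus was more frequent at p65 peaks without PDX1 than over all windows, though most of these promoter peaks touched only windows without it. The κB consensus was present, on either strand, in 52 of the 116 promoter windows they touched (44.8%, 36.1 to 53.9), in 0 of the 8 windows touched by co-occupied sites, with an upper Wilson bound of 32.4%, in 14 of the 453 windows touched by PDX1 without p65 (3.09%) and in 4.81% of all 21263 windows. The 116 windows belonged to 104 peaks and the 8 windows to 7 peaks. Windows of the same peak can overlap, so the intervals count linked windows as separate and are too narrow. The consensus is degenerate and was searched in its usual form of 10 bases, and a window can hold several overlapping matches. A related form that ends in TTTCC, not always a match to the consensus, was in 18.1% of the windows with p65 without PDX1 and in 1.60% of all. The homeodomain sequences TAATTA and TAATGA were each in 1 of the 8 windows touched by co-occupied sites (12.5%, 2.24 to 47.1), the Rfx6 window in both cases. They were in 14.3% and 17.7% of the windows with PDX1 without p65, against 4.53% and 8.32% of all windows. TGACTCA, the AP-1 sequence, and TGACGTCA, the cAMP response element, were in 2.59% and 5.17% of the windows with p65 without PDX1, against 4.66% and 2.23% of all windows. All motifs were searched on both strands. A match is a description of the window, not of binding.

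Promoter peaks with a κB match also differed in IL-1β cells. Of 44 p65 peaks without PDX1 that touched a window with the κB consensus, 43 (97.7%, 88.2 to 99.6) overlapped a p65 peak with IL-1β, with a median of 162 tags there. Of 60 such peaks at windows without a match, 20 (33.3%, 22.7 to 45.9) did, with a median of 40.0 tags. The median basal tag count was 13.1 for the peaks with a match and 6.14 for those without, so basal strength moves with the match and its part was not tested. Over all p65 peaks without PDX1, 279 (19.8%) had at least 4-fold more tags with IL-1β, and 32.3% of these lay within 1 kb of a gene end. A further 194 (13.8%) were found with IL-1β with fewer tags than in control cells.

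Some p65 peaks without PDX1 lay in clusters along single genes, which were picked after their values were seen. Gsn, which encodes the actin-severing protein gelsolin, had 11 such peaks, Col3a1, a fibrillar collagen, 8, Sparc and Fn1, matrix proteins, 7 each, Thbs1 and Col6a2 5 each, and Fabp4, Vim and Car3 were among those with 4. None of the peaks at these 9 genes overlapped a PDX1 peak with IL-1β or a p65 peak in Bmal1-/- cells with IL-1β. Over all p65 peaks without PDX1 these shares were 9.73% and 26.3%, the first of them low in part by the class rule. In all, 31 genes had 3 or more p65 peaks without PDX1 and together held 124 of them. Of these peaks 41.1% were found with p65 in wild-type cells with IL-1β, 10.5% in Bmal1-/- control cells and 5.65% in Bmal1-/- cells with IL-1β. Over all p65 peaks without PDX1 the shares were 38.7%, 8.17% and 26.3% in that order. By comparison, 21 genes had 3 or more co-occupied sites, 70 in all, of which 61.4% were found with p65 in wild-type cells with IL-1β, 1.43% in Bmal1-/- control cells and 48.6% in Bmal1-/- cells with IL-1β. Over all co-occupied sites these were 59.9%, 2.23% and 43.6%, so most of the contrast between the 2 sets of clusters is that of the classes.

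Markers of the labelled cell type, and some of other cell types, were near PDX1 peaks, against 40.9% of all genes for PDX1 without p65. Of 10 β-cell markers, 2 (Ins1 and Slc30a8) had a co-occupied site, 0 had a p65 peak without PDX1 and 9 had a PDX1 peak without p65. Of 4 fibroblast markers, 1 (Col1a2) had a co-occupied site of 8.37 p65 tags, 3 had p65 peaks without PDX1, with 14 peaks of at most 13.0 tags, and 3 had PDX1 peaks without p65. Of 7 immune markers 0 had a p65 peak of either class, and of 4 exocrine and duct markers 0 had one. Of 4 endothelial markers, Pecam1 had a co-occupied site, with 29.6 p65 and 30.1 PDX1 tags and 432.8 p65 tags with IL-1β. PDX1 peaks without p65 were near 3 of 4 endothelial, 3 of 6 other islet, 2 of 4 exocrine and duct and 1 of 7 immune markers. The part of fibroblast material in the clustered peaks was not tested.

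The lists differ in depth of signal. The wild-type control lists were made from 53.8 M p65 tags and 60.2 M PDX1 tags, of which 0.268% and 5.0% in that order lay inside peaks, per the file headers. Over the 10 lists the totals ran from 31 to 63.9 M tags and the numbers of peaks from 173 to 40028. The p65 and PDX1 lists of control cells were called against the same input, so its fluctuations enter both.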

How the data were processed

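The labels give 3 immunoprecipitated samples for each basal group. They do not say that these came from separate cultures. The files used are 10 peak lists, 1 per group, made by the authors. Per the file headers, each came from HOMER findPeaks in factor style with 1 input as control. The limits in the headers were a false discovery rate of 0.001, a 4-fold excess over input (p 0.0001), a 4-fold excess over the surrounding 10 kb, and a clonal limit of 2, with fragments taken as 100 bp. The headers do not say whether samples were pooled. Bowtie2, HOMER and the build mm10 are named, without versions, in the submitters' processing notes.

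Peak signal, as deposited by the authors, is the tag count of the peak scaled to 10 M tags. Fold over input was deposited as a ratio. The focus ratio, a fraction, and the peak score are the authors' values, as deposited. The score served to order each list. The input tags are the authors' values and have no further normalisation stated.

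Overlaps, Wilson intervals and gene assignments were computed with python 3.11.15, pandas 2.3.3 and numpy 2.4.6. Plots were drawn with matplotlib 3.10.9. The overlap step was tested on simulated data. RefSeq's table for GRCm38.p6, the assembly of mm10, gave 21887 protein-coding genes, and each peak went to the closest gene body within 50 kb. Promoter windows came from RefSeq for the same assembly and covered 17492 of these genes. Motifs were searched in those windows alone, since no genome sequence was used. Of 298 entries in the 12 gene lists 297 were matched, Tmem27 having no entry.

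The text names the 10 sites with the highest tag counts of each class and factor among those with a gene, the listed genes with a p65 peak, up to 4 genes per list for PDX1 without p65, and the 5 genes with the most co-occupied sites. The members and lists were chosen with earlier results of these data known. A few genes that this rule names are not reported here. No columns of other samples were used.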

Additional observations from a re-analysis of the deposited data

How the results depend on the processing

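No paired analysis was possible because each list holds 1 value per group and none per replicate. For the same reason leaving out each replicate was not run. The share of p65 peaks overlapping PDX1, 55.4%, was 45.0% with 50% reciprocal overlap, 44.4% with centres within 100 bp, 60.4% with peaks within 500 bp, 42.4% at 8-fold over input in both lists, 27.3% against as many highest-scored PDX1 peaks as there were p65 peaks, and 57.6% without p65 peaks at genes with 3 or more p65 peaks without PDX1, the last chosen after seeing the data. In the first 5 of these settings the share of PDX1 peaks overlapping p65, 4.37%, was 3.55%, 3.5%, 4.81%, 2.35% and 27.3%. Co-occupied sites within 1 kb of a gene end, 2.40%, were 1.42% at 8-fold over input and 1.28% with the shortened PDX1 list. For p65 without PDX1 this share, 21.3%, was 17.7% with reciprocal overlap, 17.5% by centres, 18.0% at 8-fold and 14.4% with the shortened list. Genes with a co-occupied site, 1063, were 349 at 8-fold and 540 with the shortened list. The co-occupied share of the highest bin of PDX1 peaks, 14.2%, was 12.5% with bins by fold over input. The shortened list and the 8-fold rule by construction leave fewer peaks, and no other cause was tested. In all, 57 of 81 recomputed values stayed within the interval or within 1.5 times the count; single shares and counts have no direction to change. The counts of 3 gene lists, recomputed after seeing the data, ranged from 10 to 15 for NF-κB targets with p65 without PDX1, 1 to 10 for insulin and secretion genes with a co-occupied site, and 0 to 6 for β-cell transcription factors with one. The p65 list has 0.268% of its tags in peaks, so weak co-occupied sites near the threshold may be missed.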

Other observations

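The remaining gene lists are set against 4.86% of all genes with a co-occupied site, 4.69% with a p65 peak without PDX1 and 40.9% with a PDX1 peak without p65. Of 24 core clock genes, 3 (12.5%) had a co-occupied site, 0 had a p65 peak without PDX1 and 13 (54.2%) had a PDX1 peak without p65. The co-occupied site inside Rora, a nuclear receptor of the clock, had 7.07 p65 and 45.5 PDX1 tags, and that at Arntl, the gene of BMAL1, had 3.72 p65 and 8.81 PDX1 tags. The site near Per3, a clock repressor, had 4.84 p65 and 14 PDX1 tags and no p65 peak in the IL-1β list. Of 16 genes that β cells normally repress or express on dedifferentiation, 3 (18.8%) had a co-occupied site. They were Hk1 with 22.7 p65 and 111.7 PDX1 tags, Gast, the gastrin gene, with 7.25 p65 and 27.6 PDX1 tags, and Oat with 3.72 p65 and 10.1 PDX1 tags. The Gast site had 73.6 p65 tags with IL-1β and 7.25 in control cells. Ldha, which encodes lactate dehydrogenase, had a p65 peak without PDX1, with 8.22 tags with IL-1β and 16.6 in control cells.

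At immediate early and stress genes, each p65 class held 0 to 2 genes per list, too few to tell apart from the shares over all genes. Of 24 immediate early and cAMP-response genes, 0 had a co-occupied site, 2 (8.33%) had a p65 peak without PDX1 and 15 (62.5%) had a PDX1 peak without p65. Junb, an AP-1 subunit gene, had 538.7 p65 tags with IL-1β and 27.9 in control cells, and Egr4 had 11.0 with IL-1β and 4.28 in control cells. Of 22 genes of the unfolded protein response and apoptosis, 1 (4.55%) had a co-occupied site, at Bcl2, which encodes an inhibitor of apoptosis, with 8.0 p65 and 9.47 PDX1 tags. Hspa5, the gene of an endoplasmic reticulum chaperone, had a p65 peak without PDX1 of 8.74 tags. Of 24 markers of other lineages, 2 (8.33%) had a co-occupied site, 4 (16.7%) had a p65 peak without PDX1 and 10 (41.7%) had a PDX1 peak without p65. Among them Myod1, a muscle transcription factor gene, had a p65 peak without PDX1, with 181.7 tags with IL-1β and 10.0 in control cells.

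The highest PDX1 peaks without p65 that had a gene within 50 kb were at C130026I21Rik with 194.4 tags, Elobl with 172.6 and Kcnip4, a potassium channel-interacting protein gene, with 131.3. Fam184b, Epb41l3, Zc3h3, Rfx3, Sst, Traf3ip2 and Olig3 followed, from 111.7 tags at Fam184b to 103.0 at Olig3. All 10 had a PDX1 peak in the IL-1β list and in the Bmal1-/- control list, and 7 of them had a p65 peak with IL-1β. Over all PDX1 peaks without p65 in the highest PDX1 bin these shares were 93.3%, 50.9% and 41.0% in that order.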
